A study of Mus musculus with 2 samples.

Results

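This account covers 9 genes of the complement system, C1qa, C1qb, C1qc, C6, C3, C4b, Cfb, Hc and Cfp, out of 31053 gene features measured in single cells from livers and liver tumours of mice. The genes were chosen by name, all 9 were found in both libraries, and each was followed through 5 classes of cells. A class was set by a gate on unique molecular identifiers (UMIs, each counting 1 captured RNA molecule). A hepatocyte-gated barcode had at least 0.5% of its UMIs from Alb (albumin), a duct-gated barcode at least 2 UMIs of Krt19 and Krt7 together, and a Kupffer-gated barcode at least 3 UMIs of Clec4f, Cd5l and Marco together. An other-macrophage-gated barcode had at least 3 UMIs of Gpnmb and Mmp12 together, and a T-cell-gated barcode at least 2 of Cd3e and Trbc2. None of the 9 complement genes was used in a gate. Levels are in CPM, a gene's counts per 1000000 of the summed UMIs of a class, given with 95% intervals in brackets.

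Complement is a cascade of plasma proteins that tags targets for uptake and can form a pore in a membrane. C1q, built of chains from C1qa, C1qb and C1qc, recognises bound antibody and dying cells and starts the classical pathway, in which C4 (encoded by C4b) is cut next. All pathways meet at C3. Factor B (Cfb) supplies the protease of the alternative pathway and properdin (Cfp) stabilises it, while C5 (encoded by Hc in the mouse) and C6 begin the pore. The liver is known as the main source of circulating complement, with hepatocytes making most components and tissue macrophages making C1q and properdin.

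The cells came from an HCC (hepatocellular carcinoma) model in mice that lack the Rb family of retinoblastoma proteins, called the Rb family Triple Knock Out model. The macroscopic lesions library held YFP+ cells sorted from visible tumours of an unstated number of mice. The early lesions library held YFP+ cells sorted from livers pooled from 3 mice, whose cells cannot be traced to a mouse. All groups here came from this model and were sorted on YFP, which reports Cre recombination. Deletion of the floxed alleles was not checked in any class, and there was no YFP-negative or healthy control. The animals were untreated, and the labels state no driver of Cre, strain or age. Each stage was 1 library made with the 10x 3′ v3 chemistry, so no difference below has a replicate check, no p-value is given, and the intervals cover nothing but counting error.

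The macroscopic lesions library held 256 barcodes and 7271368 UMIs, and the early lesions library 3221 barcodes and 12637053 UMIs. A barcode needed at least 1000 UMIs, which kept 241 macroscopic barcodes with a median of 14223 UMIs and 2620 early barcodes with a median of 2946 UMIs. The 2 libraries shared 0 barcodes. They differed in sex-linked transcripts, with 0 UMIs of Xist in macroscopic lesions against 10348 in early lesions, and 277 UMIs of Ddx3y in macroscopic lesions against 0 in early lesions, so stage and sex cannot be told apart. Of the genes deleted in the model, hepatocyte-gated barcodes of macroscopic lesions held 29 UMIs of Rb1, 2 of Rbl1 and 22 of Rbl2, and those of early lesions 21, 0 and 12. Kupffer-gated barcodes of early lesions held 197 UMIs of Rb1, 3 of Rbl1 and 168 of Rbl2. Rb1 was 28.4 CPM in these and 19.5 CPM in early hepatocyte-gated barcodes. These 3′ counts do not check a deletion elsewhere in a gene.

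The classes were of very unequal size. In macroscopic lesions 4 barcodes passed the Kupffer gate, 12 the other-macrophage gate, 1 the duct gate, 103 the hepatocyte gate and 20 the T-cell gate, and 106 passed none. In early lesions 1932 passed the Kupffer gate, 296 the other-macrophage gate, 101 the duct gate, 67 the hepatocyte gate and 76 the T-cell gate, and 263 passed none. A barcode was counted in each gate it passed, which joined 3 of 4 macroscopic Kupffer-gated and 99 of 296 early other-macrophage-gated barcodes, 96 of them Kupffer-gated, to a further gate. Values for barcodes that passed exactly 1 gate (single-gate barcodes) are named as such. Markers kept apart from the gates were highest in their own class for 10 of 10 hepatocyte and 6 of 6 T-cell genes in both libraries, and for 8 of 8 Kupffer and 8 of 8 duct genes in early lesions. The check compared classes of at least 20 barcodes, in macroscopic lesions the hepatocyte and T-cell classes alone. The macroscopic Kupffer gate held 5015 CPM of the Kupffer markers and 13794 CPM of the other-macrophage markers. The macroscopic other-macrophage gate held 971 and 13746 CPM in the same order. The early other-macrophage class led in only 5 of 8 markers, with Cd9, Ccr2 and Ly6c2 higher elsewhere, and the class is named by its gate alone.

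The genes lie on 5 chromosomes by the GENCODE M21 annotation of mm10. C1qa (ENSMUSG00000036887, chr4:136895917-136898803), C1qc (ENSMUSG00000036896, chr4:136889804-136893065) and C1qb (ENSMUSG00000036905, chr4:136880129-136886187) lie side by side on the minus strand. C3 (ENSMUSG00000024164, chr17:57203970-57228136), C4b (ENSMUSG00000073418, chr17:34728380-34743882) and Cfb (ENSMUSG00000090231, chr17:34856374-34862518) are on the minus strand of one chromosome. Hc (ENSMUSG00000026874, chr2:34983331-35061438) and Cfp (ENSMUSG00000001128, chrX:20925454-20931555) are on the minus strand and C6 (ENSMUSG00000022181, chr15:4727175-4814967) on the plus strand.

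The bases upstream of the transcription start are shown for 5 of the genes as examples from both sides of the division described next, the C1q genes C1qb and C1qc, the Kupffer-led C6 and Cfp, and the hepatocyte-led C3. They were taken from RefSeq promoter windows on build GRCm38.p6, which held 6 of the 9 genes. C1qb at chr4:136886201-136886450 on the minus strand and C1qc at chr4:136893066-136893164 on the minus strand are neighbours in the C1q cluster. C6 lies at chr15:4726960-4727174 on the plus strand, C3 at chr17:57228137-57228386 on the minus strand and Cfp at chrX:20931556-20931805 on the minus strand. Capitals mark 4 short motifs searched on both strands, the PU.1 core GAGGAA, the MAF half-site TGCTGA, the C/EBP motif TTGCNNAA and the NF-kB motif, GGG and TTTCC with 2 bases of any kind between them.
C1qb: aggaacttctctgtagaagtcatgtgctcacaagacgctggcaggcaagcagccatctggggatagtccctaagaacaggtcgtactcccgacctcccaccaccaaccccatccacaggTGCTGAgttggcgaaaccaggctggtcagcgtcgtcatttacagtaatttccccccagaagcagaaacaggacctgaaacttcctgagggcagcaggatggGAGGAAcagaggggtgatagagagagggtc
C1qc: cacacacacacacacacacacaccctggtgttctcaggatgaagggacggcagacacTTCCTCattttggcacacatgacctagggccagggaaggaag
C6: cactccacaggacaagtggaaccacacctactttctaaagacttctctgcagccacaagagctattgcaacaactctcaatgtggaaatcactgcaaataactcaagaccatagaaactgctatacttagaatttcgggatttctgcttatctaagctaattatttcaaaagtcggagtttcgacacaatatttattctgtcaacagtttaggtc
C3: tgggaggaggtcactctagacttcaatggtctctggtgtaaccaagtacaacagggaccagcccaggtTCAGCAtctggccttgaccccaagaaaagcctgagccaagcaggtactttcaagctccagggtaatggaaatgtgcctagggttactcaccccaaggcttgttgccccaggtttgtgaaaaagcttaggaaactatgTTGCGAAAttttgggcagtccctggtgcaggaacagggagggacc
Cfp: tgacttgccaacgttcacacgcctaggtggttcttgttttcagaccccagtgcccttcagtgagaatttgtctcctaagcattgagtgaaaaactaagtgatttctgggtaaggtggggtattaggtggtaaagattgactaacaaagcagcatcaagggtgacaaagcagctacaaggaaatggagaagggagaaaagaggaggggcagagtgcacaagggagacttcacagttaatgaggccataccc
The PU.1 core stood 30 bases from the end of the C1qb window and 42 bases from the end of the C1qc window. The MAF half-site stood 131 bases from the end in C1qb and 182 in C3, and the C/EBP motif stood 45 bases from the end in C3. No match overlapped another, no NF-kB match was found, and the windows of C6, Cfp and Hc held none of the 4. Such matches are common: of 32851 promoter windows of 250 bases, 23.3% held the PU.1 core, 16.1% the MAF half-site, 9.56% the C/EBP motif and 1.41% the NF-kB motif. The C1qc and C6 windows, at 99 and 215 bases, are shorter than that. A match describes the letters and shows no binding.

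**Figure D1:**
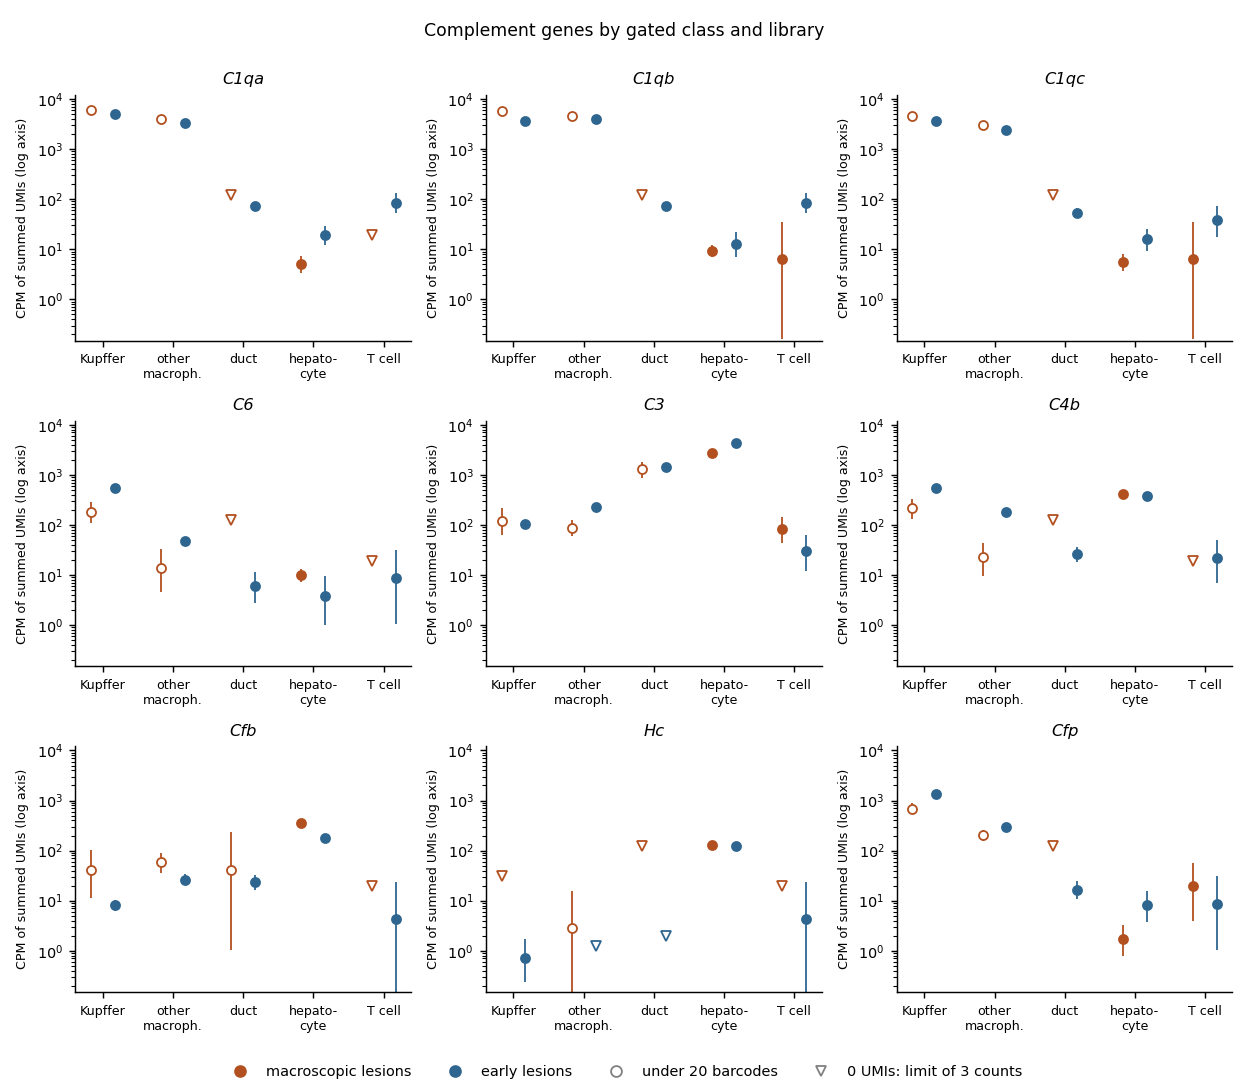
Level of each complement gene in CPM of the summed UMIs of a class, on a log axis, for the 5 gated classes in macroscopic lesions (orange) and early lesions (blue); bars are 95% Poisson intervals, open circles are classes of under 20 barcodes and triangles mark the limit that 0 UMIs allow. The C1q genes, C6 and Cfp were highest in the Kupffer-gated or other-macrophage-gated classes, and C3, Cfb and Hc in the hepatocyte-gated class.

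The 9 genes fell into a macrophage set and a hepatocyte set, with C4b in both. In early lesions C1qa, C1qb, C1qc, C6 and Cfp were 147-fold to 277-fold higher in Kupffer-gated than in hepatocyte-gated barcodes by CPM of summed UMIs. C3, Cfb and Hc were 21.7-fold to 169-fold lower in Kupffer-gated than in hepatocyte-gated barcodes, and C4b differed by 1.43-fold (1.29 to 1.59). With single-gate barcodes C1qa was 580-fold, C1qb 801-fold, C1qc 1147-fold and Cfp 332-fold higher, and C3 84.3-fold and Cfb 43.8-fold lower. With equal weight per barcode the C1q genes were 43.6-fold to 77.2-fold and Cfp 55.8-fold higher, while C6 was 220.7-fold higher and Cfb 33.1-fold lower. A gene was called at a 2-fold ratio where both sums together held at least 20 UMIs and one sum reached 10 CPM. By that rule 5 of 9 genes were higher and 3 of 9 lower, against 22.3% of 9800 measured genes called higher and 29.5% called lower. The median log2 ratio was 7.20 over the 9 genes and -0.22 over all measured genes.

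The C1q genes were macrophage genes in both libraries. C1qa, the first chain of C1q, reached 6175 CPM in the 4 Kupffer-gated, 4046 CPM in the 12 other-macrophage-gated, 5.12 CPM in hepatocyte-gated and 0 CPM in T-cell-gated barcodes of macroscopic lesions. In early lesions it reached 4951 CPM (4898 to 5003) in Kupffer-gated, 3266 CPM (3194 to 3338) in other-macrophage-gated, 73.7 CPM in duct-gated, 19.5 CPM in hepatocyte-gated and 85.4 CPM in T-cell-gated barcodes. The last 3 early levels rested on few barcodes: 102 of the 111 duct UMIs were in 1 barcode that also passed the Kupffer gate, and single-gate barcodes had 6.76 CPM in ducts, 8.57 CPM in hepatocytes and 25.8 CPM in T cells. The counting intervals of these 3 single-gate levels, 3.09 to 12.8 CPM, 3.7 to 16.9 CPM and 8.39 to 60.3 CPM in the same order, overlapped.

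At least 1 UMI of C1qa was found in 99.3% of early Kupffer-gated barcodes (1919 of 1932), and in 80.4% of early other-macrophage-gated barcodes. When each single-gate barcode was thinned at random to 1000 UMIs, the shares were 97.8% for Kupffer, 56.3% for other macrophages, 1.12% for ducts, 1.85% for hepatocytes and 1.39% for T cells. Each of the last 3 shares was 1 barcode, and T cells are not known to make C1q. Median depths were 2463 UMIs for single-gate Kupffer, 11635 for duct, 17040.5 for hepatocyte and 2566.5 for T-cell barcodes.

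C1qb, the second chain, had 5697 CPM in Kupffer-gated and 4608 CPM in other-macrophage-gated barcodes of macroscopic lesions. In early lesions it had 3600 CPM (3556 to 3645) in Kupffer-gated and 4026 CPM (3947 to 4107) in other-macrophage-gated barcodes, so here the other macrophages were ahead. C1qc, the third chain, had 4486 CPM in Kupffer-gated and 2980 CPM in other-macrophage-gated barcodes of macroscopic lesions, and 3660 CPM (3615 to 3705) in Kupffer-gated and 2442 CPM (2380 to 2505) in other-macrophage-gated barcodes of early lesions. In hepatocyte-gated barcodes C1qb stood at 9.30 CPM in macroscopic and 13.0 CPM in early lesions, and C1qc at 5.50 CPM in macroscopic and 15.8 CPM in early lesions. In single-gate hepatocytes C1qb was 3.87 CPM in macroscopic and 4.29 CPM in early lesions, and C1qc 1.74 CPM in macroscopic and 3.21 CPM in early lesions. The macroscopic barcodes that passed no gate still held 224 CPM of C1qa in 12 of 106 barcodes, and the early ones 1525 CPM in 60 of 263 barcodes, so the gates left C1q-positive cells outside every class.

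The balance between the chains differed between the macrophage classes. Single-gate Kupffer barcodes of early lesions held 0.691 UMIs of C1qb per UMI of C1qa (0.679 to 0.703), against 1.49 (1.43 to 1.55) in single-gate other macrophages of early lesions. The 8 single-gate other macrophages of macroscopic lesions held 1.18 (1.09 to 1.28). The ratio of C1qc to C1qa was closer, at 0.731 in macroscopic other macrophages, 0.742 in early Kupffer barcodes and 0.778 in early other macrophages. These intervals leave out variation between mice.

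All 3 C1q genes were detected together in most Kupffer barcodes. After thinning to 1000 UMIs the share of single-gate barcodes with all 3 was 81.5% in early Kupffer and 45.2% in early other macrophages, and 7 of 8 in macroscopic other macrophages. None of the 3 was detected in 27.4% of the thinned early other macrophages and in 17.8% (35 of 197) at full depth. The Gpnmb and Mmp12 gate of early lesions therefore held barcodes with and without C1q RNA, while each of the 12 macroscopic barcodes in it had some at full depth. Median depths of this gate were 27619.5 UMIs in macroscopic and 7952.5 in early lesions. After thinning, 1 of the 12 macroscopic barcodes had none, so the stages were not told apart here.

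**Figure D2:**
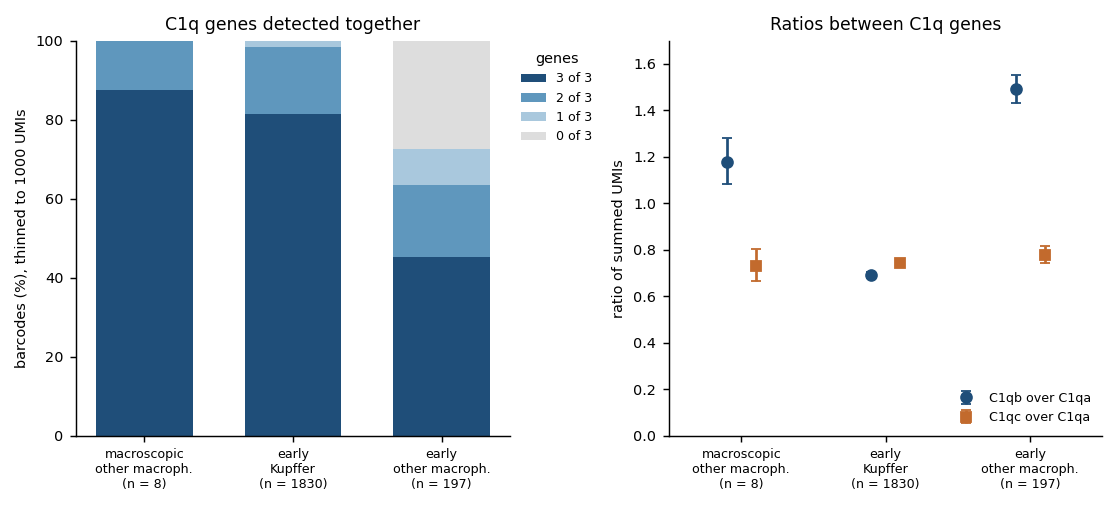
Left, percent of single-gate barcodes, thinned to 1000 UMIs, with 3, 2, 1 or 0 of the C1q genes detected; right, ratios of summed UMIs between C1q genes with 95% intervals. All 3 genes were found in 81.5% of early Kupffer and 45.2% of early other-macrophage barcodes, and C1qb over C1qa was 0.691 in early Kupffer and 1.49 in early other-macrophage barcodes.

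The other macrophages with and without C1q also differed in C3, Cfb and C4b. This split was made after its values were seen and carries no test. The 131 early single-gate barcodes with all 3 C1q genes had 142 CPM of C3 (121 to 166), against 298 CPM (236 to 370) in the 35 barcodes with none, at median depths of 8539 and 7815 UMIs. Cfb was 10.7 CPM with C1q and 69.8 CPM without, and C4b was 25.9 CPM with C1q and 0 CPM without. Cfp was 82.2 CPM (66.3 to 101) with C1q and 51.5 CPM (28.1 to 86.3) without, and these intervals overlapped. The 8 other-macrophage markers went both ways. The integrin gene Itgax was 311 CPM with C1q and 463 CPM without, and Trem2, a macrophage lipid receptor, 702 CPM with C1q and 323 CPM without. In the same order Cd9 was 625 and 1209 CPM, Chil3 37.5 and 99.3 CPM and Cx3cr1 153 and 69.8 CPM. Lyz2 was 39608 and 42727 CPM, Ccr2 85.8 and 73.5 CPM and Ly6c2 9.83 and 14.7 CPM. Dendritic-cell markers were not counted for this split, which names no cell type.

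C4b, the classical-pathway component cut by the C1 complex, was shared by Kupffer cells and hepatocytes. In macroscopic lesions it had 214 CPM in the 4 Kupffer-gated, 22.4 CPM in other-macrophage-gated, 405 CPM (388 to 423) in hepatocyte-gated and 0 CPM in T-cell-gated barcodes. In early lesions it had 539 CPM (522 to 557) in Kupffer-gated, 179 CPM in other-macrophage-gated, 25.9 CPM in duct-gated, 377 CPM (342 to 416) in hepatocyte-gated and 21.3 CPM in T-cell-gated barcodes. In early lesions the Kupffer gate came first and the hepatocyte gate second, without overlap of their intervals, and the duct and T-cell levels did not differ beyond counting error. The other-macrophage level came mostly from barcodes that were also Kupffer-gated: single-gate other macrophages had 18.1 CPM on 29 UMIs, and the 96 barcodes that passed both macrophage gates had 506 CPM.

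C4b was also spread over cells rather than held by a few. It was detected in 77.7% of macroscopic and 74.6% of early hepatocyte-gated barcodes and in 68.6% of early Kupffer-gated barcodes, and after thinning of single-gate barcodes in 21.8% of macroscopic hepatocytes, 40.0% of early Kupffer barcodes, 31.5% of early hepatocytes and 1.39% of early T cells. Per 1000 UMIs of 10 hepatocyte markers, single-gate early barcodes held 589 C4b UMIs in Kupffer cells (564 to 615) and 10.5 in hepatocytes (9.47 to 11.6). The close copy C4a was not among the features, and 16.6% of the 98-base windows in the last 500 bases of C4b also occur in C4a, so a part of the C4b count may come from C4a RNA and was not tested.

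**Figure D3:**
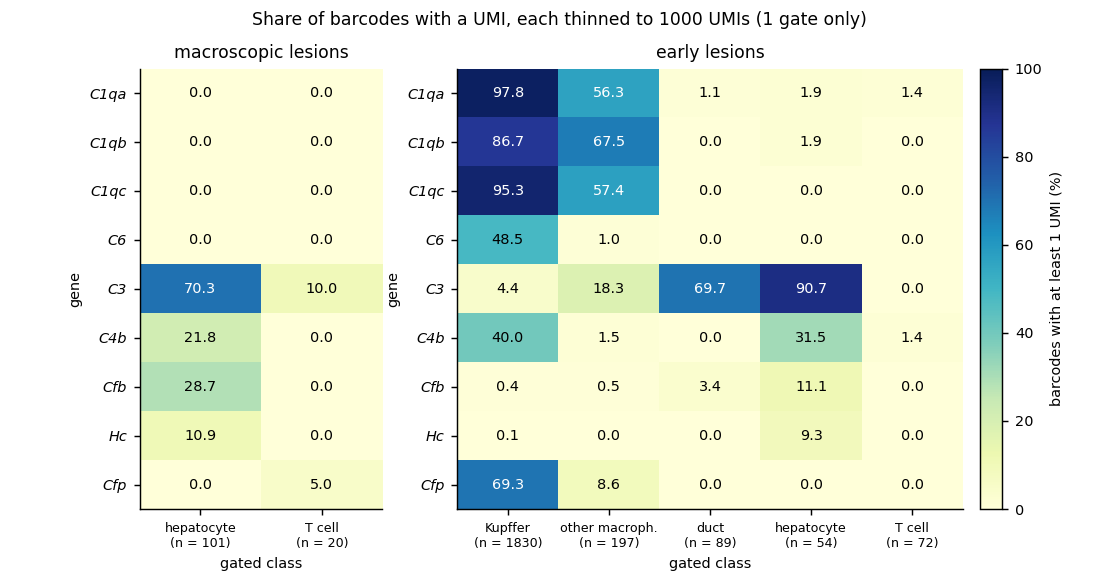
Percent of single-gate barcodes with at least 1 UMI of each gene after each barcode was thinned to 1000 UMIs, for classes of at least 20 barcodes in macroscopic lesions (left) and early lesions (right). In early lesions the Kupffer column led for the C1q genes, C6, C4b (40.0%) and Cfp (69.3%), and the hepatocyte column for C3 (90.7%), Cfb and Hc.

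C3, the component on which the pathways meet, was highest in hepatocytes and next in ducts. In macroscopic lesions it had 122 CPM in Kupffer-gated, 86.7 CPM in other-macrophage-gated, 2745 CPM (2701 to 2790) in hepatocyte-gated and 83.3 CPM in T-cell-gated barcodes. In early lesions it had 105 CPM (97.9 to 113) in Kupffer-gated, 223 CPM (205 to 243) in other-macrophage-gated, 1414 CPM (1355 to 1476) in duct-gated, 4386 CPM (4262 to 4513) in hepatocyte-gated and 29.9 CPM in T-cell-gated barcodes. The 3 macroscopic levels outside hepatocytes did not differ beyond counting error. The order in early lesions was hepatocyte, duct, other macrophage, Kupffer and T cell, and no neighbouring intervals overlapped. Single-gate Kupffer barcodes were lower, at 57.7 CPM, and the 7 T-cell UMIs were all in 1 barcode, leaving 0 UMIs in single-gate T cells.

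All 101 early duct-gated barcodes had C3, with a median of 1240 CPM per barcode. The 1 macroscopic duct-gated barcode, which also passed the hepatocyte gate, held 31 UMIs of C3, 1 of Cfb and 0 of the other 7 genes. After thinning, C3 was found in 70.3% of macroscopic hepatocytes and 10.0% of macroscopic T cells, and in 4.37% of Kupffer, 18.3% of other-macrophage, 69.7% of duct, 90.7% of hepatocyte and 0% of T-cell barcodes of early lesions. Per 1000 hepatocyte-marker UMIs, early single-gate barcodes held 458 C3 UMIs in other macrophages (399 to 525), 237 in ducts (225 to 249) and 120 in hepatocytes (116 to 124). Kupffer barcodes, at 62.0 (55.5 to 69.1), held less C3 per hepatocyte-marker UMI than hepatocytes did. The macroscopic other macrophages, at 69.4 (38.2 to 117), overlapped the macroscopic hepatocytes, at 69.5 (68.3 to 70.7).

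Cfb, which encodes the protease of the alternative-pathway convertase, was led by hepatocytes. In macroscopic lesions it had 40.7 CPM on 4 UMIs in Kupffer-gated, 58.8 CPM in other-macrophage-gated, 354 CPM (338 to 371) in hepatocyte-gated and 0 CPM in T-cell-gated barcodes. The other-macrophage value came from 21 UMIs, of which 16 were in 1 barcode, and the single-gate value was 4.58 CPM. In early lesions Cfb had 8.06 CPM (6.09 to 10.5) in Kupffer-gated, 26.2 CPM (20.2 to 33.5) in other-macrophage-gated, 23.2 CPM (16.2 to 32.3) in duct-gated, 175 CPM (151 to 202) in hepatocyte-gated and 4.27 CPM in T-cell-gated barcodes. The duct and other-macrophage levels did not differ beyond counting error, and single-gate Kupffer barcodes had 4.45 CPM. Cfb overlaps Gm20547, a predicted gene on the same strand that was counted too, so its count is uncertain.

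Cfp, the properdin gene, was a Kupffer gene. In macroscopic lesions it had 692 CPM in the 4 Kupffer-gated, 201 CPM (158 to 254) in other-macrophage-gated, 1.71 CPM in hepatocyte-gated and 19.2 CPM in T-cell-gated barcodes. In early lesions it had 1337 CPM (1310 to 1364) in Kupffer-gated, 302 CPM (280 to 324) in other-macrophage-gated, 16.6 CPM in duct-gated, 8.36 CPM in hepatocyte-gated and 8.54 CPM in T-cell-gated barcodes. The last 3 did not differ beyond counting error. The 1 single-gate Kupffer barcode of macroscopic lesions held 1277 CPM. Single-gate ducts of early lesions held 1.5 CPM on 2 UMIs and single-gate other macrophages 72.4 CPM, and single-gate Kupffer barcodes held 91.0% of the Cfp UMIs of all kept early barcodes.

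Hc, which encodes C5 in the mouse, was found almost entirely in the hepatocyte gate. It had 132 CPM (122 to 142) in macroscopic hepatocyte-gated barcodes and 122 CPM (102 to 144) in early ones. In single-gate barcodes of the other classes macroscopic lesions held 0 UMIs of Hc, and early lesions held 4 in Kupffer cells and 1 in T cells. Early other-macrophage-gated and duct-gated barcodes held 0 UMIs with every barcode counted, limits of 1.23 CPM and 1.99 CPM at 3 counts. Single-gate hepatocytes held 99.0% of the Hc UMIs of all kept macroscopic barcodes and 94.2% of those of all kept early barcodes. Gm13449 lies across Hc on the opposite strand and was counted too, and the use of strand in counting was not stated.

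C6, the component that joins C5 in the pore, was instead a Kupffer gene in early lesions. It had 545 CPM (528 to 563) in Kupffer-gated, 48.4 CPM (40.0 to 57.9) in other-macrophage-gated, 5.98 CPM in duct-gated, 3.72 CPM on 4 UMIs in hepatocyte-gated and 8.54 CPM on 2 UMIs in T-cell-gated barcodes. Single-gate barcodes sharpened this to 604 CPM in Kupffer cells and 2.5 CPM on 4 UMIs in other macrophages, with 0 UMIs in ducts and T cells, and 96.4% of the C6 UMIs of all kept early barcodes were in single-gate Kupffer barcodes. The 9 duct UMIs were in 1 barcode. After thinning, 48.5% of single-gate Kupffer barcodes held C6, against 1.02% of other macrophages and 0% of ducts, hepatocytes and T cells.

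In macroscopic lesions, where few Kupffer-gated barcodes were captured, C6 had 183 CPM (109 to 289) on 18 UMIs in the 4 Kupffer-gated, 14 CPM on 5 UMIs in other-macrophage-gated and 9.87 CPM (7.37 to 12.9) on 52 UMIs in hepatocyte-gated barcodes. The hepatocyte UMIs were spread over 19 of 103 barcodes with at most 16 in 1 barcode. They made up 70.3% of the 74 C6 UMIs of all kept macroscopic barcodes. C6 was the terminal-pathway gene of the set that the macrophage gate led, and Hc the one the hepatocyte gate led.

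Among single-gate Kupffer barcodes C6, C4b and Cfp were found together little more often than apart. At 1000 UMIs C6 was found in 49.5% of barcodes with C4b and 47.8% of those without. C6 was found in 49.4% of barcodes with Cfp and 46.3% without, and C4b in 41.0% with Cfp and 37.8% without.

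The other macrophages held less C6, Cfp and C4b and more C3 and Cfb than Kupffer barcodes. In early lesions C6 was 11.3-fold (9.39 to 13.7), Cfp 4.43-fold (4.11 to 4.78) and C4b 3.02-fold (2.73 to 3.34) higher in Kupffer-gated than in other-macrophage-gated barcodes. These were 3 of 8 measured genes, where 13.4% of all 8265 measured genes were called higher. With single-gate barcodes the ratios were 242-fold for C6 (94.4 to 888), 19.7-fold for Cfp (16.4 to 23.8) and 30.3-fold for C4b (21.0 to 45.3). C3 was 2.12-fold (1.89 to 2.37) and Cfb 3.25-fold (2.24 to 4.74) lower in Kupffer-gated barcodes, 2 of 8, where 5.48% of all measured genes were called lower. With single-gate barcodes both stayed called. C3 was then 57.7 CPM in Kupffer barcodes and 194 CPM in other macrophages, and Cfb 4.45 and 23.1 CPM. C1qa and C1qc were 1.52-fold and 1.5-fold higher in Kupffer-gated barcodes, and C1qb was 1.12-fold lower; with single-gate barcodes C1qa reached 2.07-fold and was called. At a minimum of 2000 UMIs per barcode the C3 call ended, at a log2 ratio of -0.96.

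The 96 early barcodes that passed both macrophage gates lay between the classes in some genes and above both in others. They had 5110 CPM of C1qa and 5055 CPM of C1qb, 142 CPM of C6 in 47.9% of barcodes, 771 CPM of Cfp in 81.2% and 280 CPM of C3. Whether such a barcode is 1 cell or a pair was not tested; Scrublet, a doublet caller, marked 0 macroscopic and 3 early barcodes, too few to be used.

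In hepatocyte-gated barcodes Cfb was higher and C3 lower in macroscopic than in early lesions, while C4b and Hc stayed close. Cfb was 2.03-fold (1.74 to 2.37) higher, the 1 of 7 measured genes called in that direction, where 8.45% of 9057 measured genes were called higher. The call ended with single-gate barcodes, at 1.84-fold, with doubled gate thresholds, at 1.80-fold, and with barcodes limited to 300 or more genes and 25% mitochondrial UMIs, at 1.997-fold. C3 was 1.60-fold (1.55 to 1.65) lower, short of a call. C4b differed by 1.07-fold (0.965 to 1.20) and Hc by 1.08-fold (0.899 to 1.32), intervals that include no difference.

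C1qa at 3.81-fold and C1qc at 2.87-fold were called lower in macroscopic hepatocyte-gated barcodes, 2 of 7, where 18.9% of all measured genes were called lower. Both rested on 17 to 29 UMIs per stage, and with single-gate barcodes neither held enough UMIs to be measured. The median log2 ratio was -0.48 over the 7 genes and -0.29 over all measured genes. C6, with 52 UMIs in macroscopic and 4 in early hepatocyte-gated barcodes, was below 10 CPM in both and was not measured; with single-gate barcodes it passed 10 CPM and was 3.13-fold (1.01 to 15.7) higher on 52 UMIs in macroscopic and 3 in early lesions. Fewer cells that express a gene and less RNA per cell cannot be told apart from these sums.

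The macroscopic hepatocyte gate held 2 kinds of barcode. In 58 of its 103 barcodes Malat1, an abundant nuclear RNA, made up under 0.05% of UMIs, against 4 of 67 in early lesions. The macroscopic barcodes under 0.05% had a median of 17791 UMIs and 0.220% mitochondrial UMIs, and those with at least 0.05% a median of 107248 UMIs and 7.59%. The 4 early barcodes under 0.05% were unlike the macroscopic ones, with a median of 3073.5 UMIs and 93.5% mitochondrial UMIs. C3 was 609 CPM in the barcodes under 0.05% and 3516 CPM in those at or above it, 5.77-fold lower (5.39 to 6.20). C4b was 104 CPM under and 514 CPM at or above 0.05%, 4.95-fold lower (4.18 to 5.90), and Hc 30.8 CPM under and 169 CPM at or above, 5.48-fold lower (4.02 to 7.65).

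Cfb did not follow them. It was 319 CPM under and 367 CPM at or above 0.05% Malat1, a ratio of 0.870 (0.780 to 0.968). Other hepatocyte genes were also uneven across this split: Alb was 1.67-fold lower and Apoa1, an apolipoprotein gene, 1.75-fold higher in the barcodes under 0.05%. By barcode, the median C3 was 448 CPM under 0.05% and 3084 CPM at or above, and the median Hc 0 CPM under and 150 CPM at or above. The median Cfb was 246 CPM under and 295 CPM at or above.

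**Figure D4:**
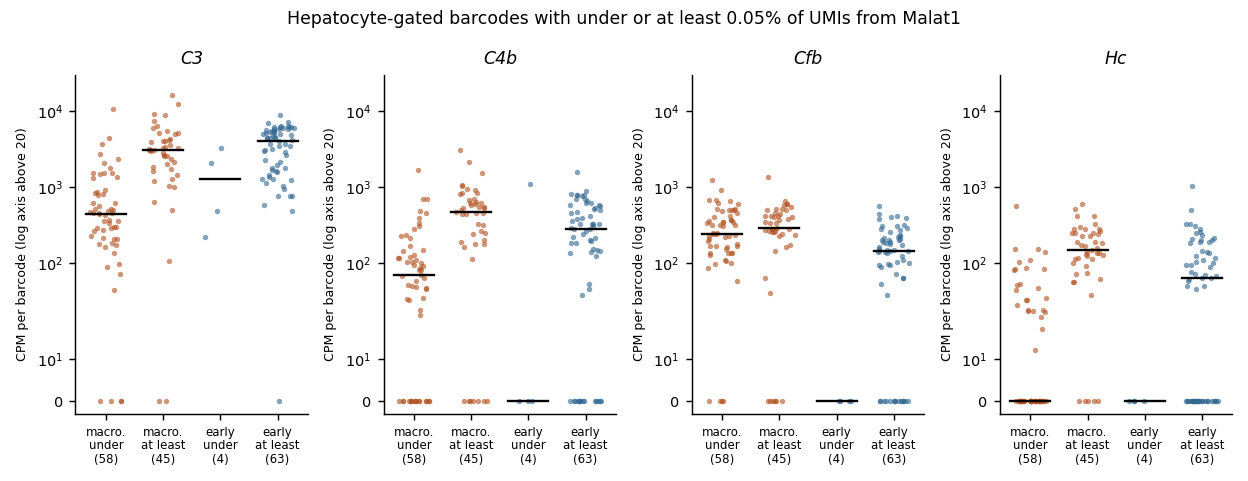
CPM per hepatocyte-gated barcode for C3, C4b, Cfb and Hc, on an axis that is linear up to 20 and logarithmic above, with medians as black lines, for barcodes with under or at least 0.05% of UMIs from Malat1 in macroscopic and early lesions (number of barcodes in brackets). In macroscopic lesions the median of C3 was 448 CPM under and 3084 CPM at or above 0.05%, while that of Cfb was 246 and 295 CPM. Barcodes under 0.05% had a median of 0.220% mitochondrial UMIs in macroscopic and 93.5% in early lesions.

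With only barcodes of at least 0.05% Malat1 the stage difference in C3 narrowed and that in Cfb held. C3 was then 1.26-fold (1.22 to 1.3) lower in macroscopic lesions, and Cfb 2.08-fold (1.78 to 2.43) higher. C4b was 1.36-fold (1.22 to 1.51) and Hc 1.37-fold (1.13 to 1.66) higher. C6 was 3.36-fold (1.23 to 12.8) higher on 49 UMIs in macroscopic and 4 in early lesions. Whether low Malat1 marks damaged cells, free RNA or a cell state was not tested.

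Hepatocytes commonly carried several of these genes at once. C3, C4b, Cfb and Hc were all detected in 55.3% of macroscopic (57 of 103) and 55.2% of early (37 of 67) hepatocyte-gated barcodes. At 3000 UMIs per barcode all 4 were found in 8.16% of 98 macroscopic and 10.0% of 60 early barcodes. The hepatocyte gate also held RNA of the duct-marker list, which includes Krt8 and Krt18. Of this list 7 of 8 genes were detected at a summed 3059 CPM in macroscopic lesions and 8 of 8 at 2284 CPM in early lesions. The duct gate genes Krt19 and Krt7 were at 0.759 CPM each in macroscopic hepatocyte-gated barcodes, and at 41.8 and 20.4 CPM in early ones. The part of duct RNA in the hepatocyte values was not tested. Kupffer markers summed to 43.1 CPM with 5 of 8 at 0 in macroscopic hepatocytes, and to 120 CPM with 1 of 8 at 0 in early hepatocytes.

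The 12 other-macrophage-gated barcodes of macroscopic lesions carried the C1q genes at close to the early level only with every barcode counted. C1qa was then 1.24-fold (1.17 to 1.31), C1qb 1.14-fold (1.09 to 1.21) and C1qc 1.22-fold (1.14 to 1.3) higher in macroscopic than in early lesions. With single-gate barcodes, 8 macroscopic and 197 early, the stages lay further apart. C1qa was 2.0-fold higher, C1qb was 5675 CPM in macroscopic and 3585 CPM in early lesions, and C1qc 3521 and 1870 CPM. The ratios that follow are with every barcode counted unless single-gate is stated. C3 was 2.58-fold (1.79 to 3.83), C6 3.46-fold (1.44 to 10.8) and C4b 7.99-fold (4.02 to 18.6) lower, 3 of 8 measured genes, where 17.8% of all measured genes were called lower. With single-gate barcodes the calls of C6 and C4b ended. C6 then had 0 UMIs in macroscopic and 4 in early lesions, too few to be measured. C4b had 0 UMIs in macroscopic lesions, a limit of 13.8 CPM at 3 counts, against 18.1 CPM in early lesions. Cfb, 1 of 8, was 2.24-fold higher, where 12.2% of all measured genes were called higher, and with single-gate barcodes it was 5.04-fold lower (0.849 to 204) on 1 macroscopic UMI. Cfp turned as well, from 1.5-fold lower with all barcodes to 3.61-fold (2.58 to 5.0) higher with single-gate barcodes. Hepatocyte markers summed to 8514 CPM in macroscopic and 560 CPM in early other-macrophage-gated barcodes, with 10 of 10 detected in each, and their part was not tested. With single-gate barcodes these markers summed to 990 CPM in macroscopic and 424 CPM in early lesions. Among the other complement genes, 5 of 6 fluid-phase regulators and 1 of 1 terminal gene were higher and 5 of 9 receptors lower in the macroscopic class. Single-gate barcodes left 0 of 1 measured fluid-phase regulator higher, no terminal gene measured and 2 of 8 receptors lower.

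Ducts shared C3 with hepatocytes and little else of the set. In early lesions C3 was 3.10-fold (2.95 to 3.27), C4b 14.6-fold (10.5 to 20.8), Cfb 7.52-fold (5.22 to 11.1) and Hc at least 61.1-fold lower in duct-gated than in hepatocyte-gated barcodes. These were 4 of 8 measured genes, where 10.0% of all measured genes were called lower. C1qa, C1qb and C1qc were called higher, where 24.0% of all measured genes were. Most of their UMIs were in 1 of the 2 duct-gated barcodes that also passed the Kupffer gate, and with single-gate barcodes none of these genes was measured. The 10 early barcodes that passed both the duct and the hepatocyte gate had 1100 CPM of C3 in 10 of 10 and 0 CPM of Hc, nearer to ducts in both. Of the other complement genes described next, ducts had 3 of 6 initiation, 4 of 4 terminal and 6 of 10 fluid-phase genes lower than hepatocytes, and 1 of 10 fluid-phase genes and 1 of 2 receptors higher. With single-gate barcodes 0 of 1 measured receptor was higher.

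Other complement genes, 45 in 6 lists, showed how far the same division reached. Each list is counted whole, and up to 4 genes with the highest level in any class are named from it; genes named beyond these were chosen after their values were seen. Among recognition molecules and their proteases, 1 of 7 measured genes was higher and 6 of 7 lower in Kupffer-gated than in hepatocyte-gated early barcodes, where 22.3% of all measured genes were called higher and 29.5% lower. Fcna, the ficolin A gene, was the one higher, with 1879 CPM in Kupffer-gated and 13.0 CPM in hepatocyte-gated barcodes, 144-fold (86.0 to 264). C1s1, the C1 protease, was 40.8-fold, Masp2, a lectin-pathway protease, 87.1-fold, and Mbl1, a mannose-binding lectin, 157-fold lower in Kupffer-gated barcodes. The C1 recognition chains and the C1 protease thus had their highest levels in different classes.

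C2, which pairs with C4, was 63.2 CPM in Kupffer-gated and 123 CPM in hepatocyte-gated barcodes, 1.94-fold lower and not called. With single-gate barcodes C2 was just called lower, at a log2 ratio of -1.003. All 4 measured genes of the rest of the terminal pathway were lower in Kupffer-gated barcodes: C8g by 44.4-fold, C9 by 71.0-fold, C8a by 66.4-fold and C8b by 116-fold. C7 had no UMI in any gated class. Of the fluid-phase regulators 0 of 10 were higher and 9 of 10 lower in Kupffer-gated barcodes, among them Vtn (vitronectin) at 273-fold, Cfhr2 at 287-fold, C4bp at 214-fold and Clu (clusterin) at 37.9-fold lower. Clu peaked in ducts, at 19995 CPM against 5252 CPM in hepatocyte-gated barcodes of early lesions.

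Receptors for complement fragments lay on the other side, with 7 of 8 measured higher and 0 of 8 lower in Kupffer-gated barcodes, against the same 22.3% and 29.5% of all measured genes. Vsig4, a receptor for C3 fragments on Kupffer cells, was 447-fold (217 to 1112) higher, at 2909 CPM in Kupffer-gated and 6.51 CPM in hepatocyte-gated barcodes. Itgb2, the shared chain of complement receptors, was 200-fold (35.8 to 7906) and Itgax, a chain of one of them, 29.0-fold (5.14 to 1150) higher, each against 1 hepatocyte UMI. Vsig4 is also in the list of Kupffer markers, and Itgax in that of other macrophages. C1qbp, a mitochondrial protein that can bind C1q, was 95.8 CPM in Kupffer-gated and 174 CPM in hepatocyte-gated barcodes and was not called. Of 3 measured membrane regulators 1 was higher and 1 lower: Cd59a, which blocks the pore, was 8.25-fold lower in Kupffer-gated barcodes, Cd55, which breaks up convertases, had 243 UMIs in Kupffer-gated and 0 in hepatocyte-gated barcodes, and Cr1l differed by 1.04-fold. Cd59b had too few UMIs to be measured.

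Between the macrophage classes of early lesions 2 of 9 receptors were higher and 3 of 9 lower in Kupffer-gated barcodes, where 13.4% of all measured genes were called higher and 5.48% lower. Vsig4 was 5.33-fold higher, and Itgax 11.3-fold and Itgb2 2.37-fold lower. Of the other lists 1 of 2 initiation genes, 1 of 1 activation gene, 2 of 2 fluid-phase and 1 of 2 membrane regulators were higher in Kupffer-gated barcodes and 0 lower, and no terminal gene was measured. Fcna was 5.18-fold, C2 3.85-fold and Clu 19.9-fold higher in Kupffer-gated than in other-macrophage-gated barcodes. With single-gate barcodes 2 of 2 initiation genes were higher, and C2, the 1 measured activation gene, had a log2 ratio of 6.67.

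**Figure D5:**
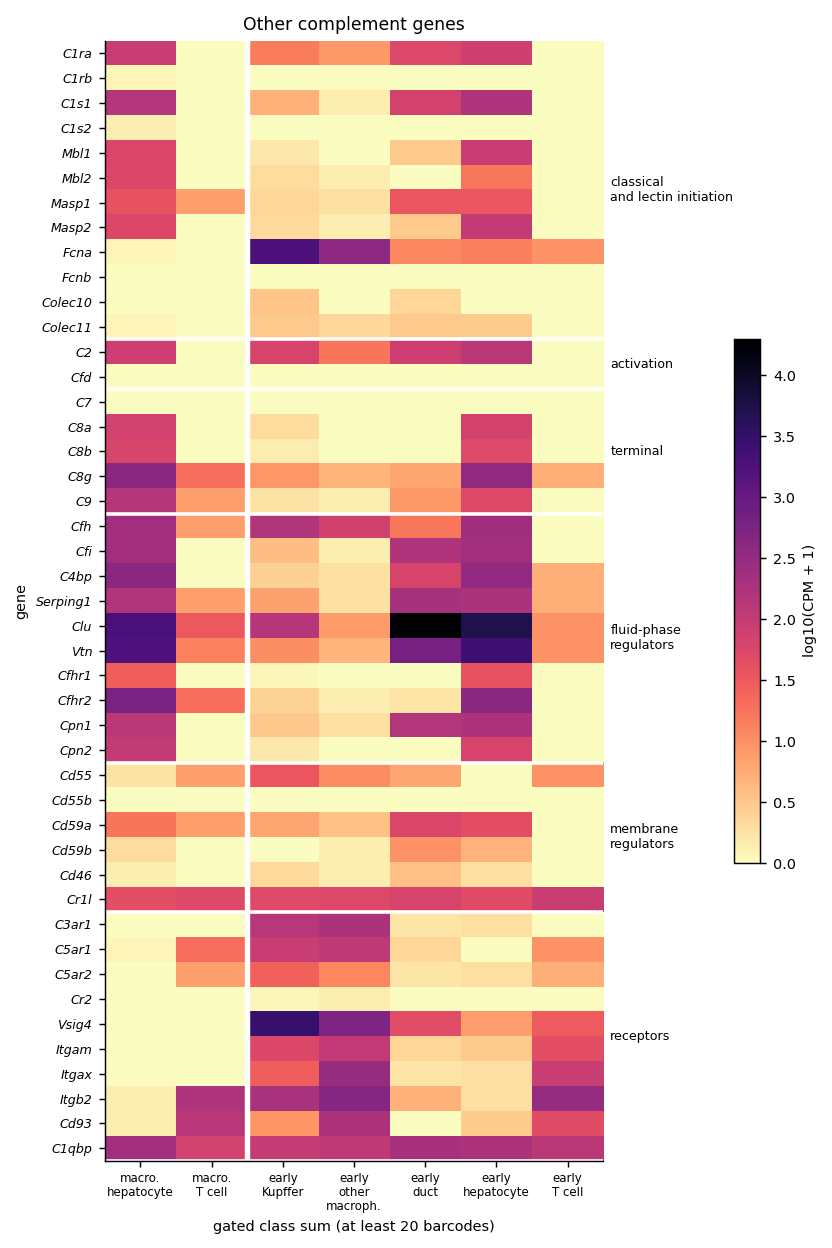
Level of 45 other complement genes, as log10 of CPM plus 1, in the class sums of at least 20 barcodes, with macroscopic lesions left of the white line and early lesions right of it, grouped by role. The measured terminal genes and most fluid-phase genes were darkest in the hepatocyte columns, with Clu at 19995 CPM in early ducts, and Vsig4 and Fcna in the early Kupffer column, at 2909 and 1879 CPM.

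In hepatocyte-gated barcodes few of these genes were called between macroscopic and early lesions, where 8.45% of all measured genes were called higher and 18.9% lower. Of the 10 fluid-phase regulators 0 were higher and 1 lower, Clu at 1993 CPM in macroscopic and 5252 CPM in early lesions, 2.63-fold (2.55 to 2.72) lower. The Clu call ended with single-gate barcodes, where 0 of the 10 were called lower. The early hepatocyte gate held 10 barcodes that also passed the duct gate and the macroscopic one 1, and their part was not tested. C9, the last component of the pore, was 2.77-fold (2.10 to 3.71) higher, at 141 CPM in macroscopic and 51.1 CPM in early lesions, 1 of 4 terminal genes. Mbl2, a mannose-binding lectin, was 3.52-fold (2.16 to 6.12) higher on 293 UMIs in macroscopic and 17 in early lesions, 1 of 6 genes of initiation. Cd59a was 2.65-fold (1.81 to 3.84) lower, 1 of 2 membrane regulators. C2 and C1qbp were measured and not called.

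The genes whose class pattern was most like the complement genes were ranked by Pearson r of log2(CPM + 1) over the 7 class sums of at least 20 barcodes, among 6336 genes, leaving out gate genes and the 9 genes. For the summed C1q genes these included Lpcat2 (r = 0.997), Pld4 (0.996), Pkib (0.995) and Atp6v1a (0.995). For C6 they were Ttc7 (r = 0.990), Tbc1d13 (0.976), Dmpk (0.973), Phf23 (0.960) and Cant1 (0.958), and for Cfp Heatr5a (r = 0.992), Dennd5a (0.987), BC005537 (0.983), Wdr41 (0.983) and Stard9 (0.981). For C3 they were Slc37a4 (r = 0.992), Galk1 (0.989), Mrps17 (0.986), Nit2 (0.985) and Cyp51 (0.984). The 7 sums come from 2 libraries and share their depth, so these values rank genes and carry no test.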

How the data were processed

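The deposited files are 2 single-cell matrices of UMI counts per gene and barcode, as the authors made them; per the submitters' processing notes, Cell Ranger 3.0.2, Seurat 2.3.0 and build mm10 were used, with no role given for Seurat. The protocols in the labels give sorting of YFP+ cells and 10x 3′ v3 chemistry. Barcodes with at least 1000 UMIs were gated as described and counted in every gate they passed. UMIs were summed per class and library and scaled to CPM of the total. CPM have exact Poisson, ratios exact conditional binomial and shares exact Clopper-Pearson 95% intervals, for counting error only; 0 UMIs were taken as 3 counts in ratios. Thinning used seed 1. With 1 library per stage no test was possible. The 9 genes, the marker and pathway lists and the naming rule (all 9 genes, and up to 4 genes per list by highest CPM) were chosen with earlier results of these data known. Ratios were tested on simulated data. Alternatives covered gates, depth, quality limits, Malat1, doublets, weighting and scaling. Python 3.11.15, numpy 2.4.6, scipy 1.17.1, pandas 2.3.3 and scanpy 1.11.5 were used. Some items are not reported here.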

Additional observations from a re-analysis of the deposited data

How the results depend on the processing

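No paired analysis was possible because each stage was 1 library. No called ratio of the 9 genes changed sign in the 3 comparisons to which the alternatives were applied, which were hepatocyte-gated barcodes of macroscopic over early lesions and Kupffer-gated over hepatocyte-gated or other-macrophage-gated early barcodes. Of the ratios short of a call, macroscopic over early in hepatocytes, the log2 ratio of C4b went from 0.10 to -0.04 with single-gate barcodes and -0.02 with doubled gates, and was -0.0007 with equal weight per barcode. That of Hc went from 0.12 to -0.05, -0.04 and -0.06 under the same settings. That of C1qb, Kupffer over other macrophage, went from -0.16 to 0.0059 where gate UMIs had to reach 0.05%. In hepatocyte-gated barcodes, macroscopic over early, the 2 genes called lower became 0 with single-gate barcodes 1 with at least 0.05% Malat1 and 3 with equal weight per barcode, and the 1 called higher became 2 with at least 0.05% Malat1. Kupffer-gated over other-macrophage-gated, the 2 called lower became 1 at 2000 UMIs. Over all genes, median-of-ratios scaling moved the median log2 ratio from -0.29 to 0.04 between stages, from -0.22 to 0.18 for Kupffer over hepatocyte and from 0.25 to 0.06 for Kupffer over other macrophage. It moved the genes called higher and lower from 765 and 1709 to 1275 and 1005, from 2190 and 2893 to 2901 and 2239, and from 1111 and 453 to 833 and 575. With every gene of at least 1 UMI there were 1161 higher and 5210 lower between stages, 7065 lower for Kupffer over hepatocyte, and 2195 higher and 3162 lower for Kupffer over other macrophage. Single-gate barcodes gave 1815 higher in the last comparison. The causes were not tested, except that more low-count genes enter without a minimum. Each class level and log2 ratio of the 9 genes was compared once per alternative setting. Pooled over the settings, 558 level comparisons stayed within the counting interval and 144 moved, and 147 ratio comparisons stayed and 64 moved. With single-gate barcodes most moved: 49 levels moved and 32 stayed, and 15 log2 ratios moved and 6 stayed. Depth limits Hc, C6 and Cfp outside their main class. Macroscopic macrophage values rest on 4 Kupffer-gated or 12 other-macrophage-gated barcodes, and single-gate ones on 1 or 8.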
